A study of Ictidomys tridecemlineatus with 31 samples.

Results

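The genes described here carry glucose across the proximal tubule cell or make new glucose in the kidney, and all 9 that were looked for had a row among the 12863 genes of the deposited kidney table of the 13-lined ground squirrel. They were chosen by gene symbol, with earlier results of these data known: the apical sodium-glucose carriers Slc5a1 (SGLT1) and Slc5a2 (SGLT2), the basolateral glucose carrier Slc2a2 (GLUT2), and the gluconeogenic genes Pc, Pck1, Pck2, Fbp1, G6pc and Slc37a4. Each had a single row. The row called Slc5a1 is an unnamed locus in the reference annotation (LOC101978348) that the authors' table names from a match to a human gene, so a close relative of Slc5a1 cannot be set aside for that row; the other 8 carry their names in the reference annotation.

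The kidneys came from laboratory-housed animals of both sexes, without a genetic or drug treatment, whose state was set by body temperature and season. Summer active (SA) animals were warm and fattening, spring dark (SpD) animals were warm again in the dark hibernaculum after their last torpor, and the other 4 states belong to the hibernation season: entrance into torpor (Ent), with body temperature falling; early arousal (EAr), still cold at the start of rewarming; late arousing (LAr), later in the same rewarming; and interbout aroused (IBA), shortly after the return to warmth. The table held 5 SA, 5 IBA, 5 Ent, 5 EAr, 6 LAr and 5 SpD animals, 31 in all, 17 of them female. Tests used the 29 animals of the study's own expression analysis (4 SA, 5 LAr), and the remaining 2, K137 (SA) and K113 (LAr), are shown apart. Ages are not given in the sources used here, each kidney is from a different animal, and RNA was taken from a fragment of the kidney.

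Glucose that passes the glomerular filter is taken back by the proximal tubule: SGLT2 in the early segments takes up most of it, SGLT1 in the last segment takes up the rest at high affinity, and GLUT2 lets it leave toward the blood. The same proximal tubule cells make glucose from lactate, glutamine and glycerol, and the kidney shares this ability with the liver. Pyruvate carboxylase (Pc) makes oxaloacetate, the cytosolic (Pck1) and mitochondrial (Pck2) forms of phosphoenolpyruvate carboxykinase turn it into phosphoenolpyruvate, fructose-1,6-bisphosphatase (Fbp1) passes the carbon on toward glucose 6-phosphate, and Slc37a4 brings glucose 6-phosphate to the glucose-6-phosphatase G6pc in the endoplasmic reticulum, where free glucose is released.

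Values are regularized log (rlog) values, which are normalized read counts on the log2 scale, so a difference of 1 is 2-fold. They ran from 4.11 to 19.79 over all genes and animals, and the median gene of an animal lay between 9.74 and 9.88. The table gives neither read counts nor depths; the precision of a value is therefore known from the spread between animals alone, and levels of different genes are not compared because the values are not per length. All 18 proximal tubule markers were among the genes measured, and so were 3 of 7 hepatocyte and 0 of 7 adrenal cortex markers. IBA, Ent and SpD each had 3 animals in experiment 1 and 2 in experiment 2, which used another library kit and instrument, and the SA, EAr and LAr animals were all in experiment 2. Kidney markers set 3 animals apart, K113, K137 and K130 (SpD). K130 is among the 29, and its effect is given beside the results. K104 (IBA), also among the 29, was alike in kind, and its effect on the counts is given where each animal is left out.

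Of the 9 genes, 5 differed across the 6 states (limma F test with sex and experiment as terms, q under 0.05 after Benjamini-Hochberg adjustment over 12863 genes), against 46.1% of all genes. They were Slc2a2 (q = 0.0011), Slc5a1 (q = 0.0017), Pck2 (q = 0.0099), Slc5a2 (q = 0.012) and Slc37a4 (q = 0.015), so all 3 carriers of the plasma membrane were among them. Pck1 (q = 0.075), G6pc (q = 0.096), Fbp1 (q = 0.10) and Pc (q = 0.36) did not pass. The mean was highest in SA for 6 of the 9 genes and lowest in IBA for 6 of the 9. The SA count rests on K130: without it the SpD mean exceeded the SA mean for Pck2 (12.93 against 12.78) and Pc (13.84 against 13.70). When the 6 states of a gene were put in order of their means, each of the 45 pairs of neighbours overlapped in single animals, so the order below gives no step between neighbouring states that exceeded their spread.

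**Figure D1:**
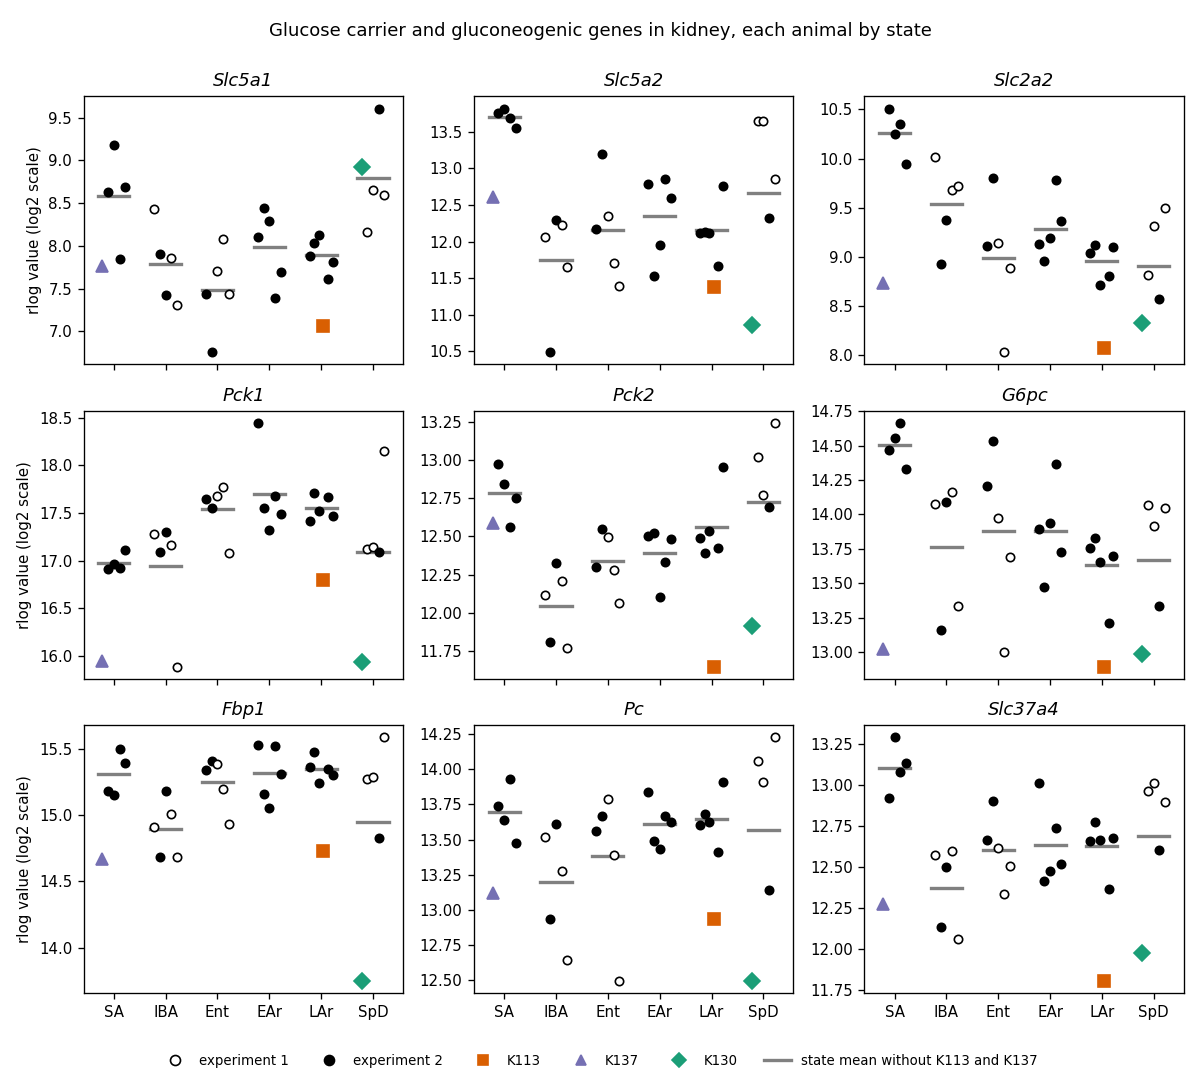
Each panel plots the rlog value (log2 scale) of a gene in every animal by state; circles are animals of experiment 1 (open) and experiment 2 (filled), the square, triangle and diamond are K113, K137 and K130, and bars are state means without K113 and K137. With K130 included, SA means are the highest for 6 genes and IBA means the lowest for 6. The 3 marked animals lie at or under the bottom of their state in nearly every panel.

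Slc5a2, the main carrier of glucose reabsorption, was lower in the hibernation season and had its widest gap between SA and IBA. Its values in SA were 13.55, 13.69, 13.76 and 13.81, a spread of 0.11 (SD, n = 4) about a mean of 13.70. In IBA they were 10.49, 11.65, 12.07, 12.22 and 12.29, all below the lowest SA value. The other hibernation states lay between: Ent ran from 11.39 to 13.19, EAr from 11.53 to 12.86, and LAr from 11.66 to 12.76. SpD was split, with 13.65, 13.64 and 12.86 in experiment 1, 12.31 in K84 and 10.86 in K130. The mean of SpD was 12.66 ± 1.16 (SD, n = 5), and 13.12 ± 0.65 (SD, n = 4) without K130. In the fit, which adjusts for sex and experiment and so differs somewhat from the gap between plain means, Slc5a2 was 2.25 lower in IBA than in SA (difference -2.25, SE 0.49, q = 0.0024), that is 4.77-fold. Taken over the season, as the mean of IBA, Ent, EAr and LAr minus the mean of SA and SpD, the difference was -1.08 (SE 0.27, q = 0.0032), and -1.32 without K130.

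Slc5a1, the high-affinity carrier, differed by season and followed another order of states from Slc5a2. It was highest in SpD (8.16, 8.60, 8.66, 8.92 and 9.60) and SA (7.84, 8.63, 8.69 and 9.17). It was lowest in Ent (6.76, 7.44, 7.44, 7.71 and 8.08), with IBA, EAr and LAr means of 7.79, 7.99 and 7.89. Over the season the 9 active animals ran from 7.84 to 9.60 with a median of 8.66, and the 20 hibernation animals from 6.76 to 8.44 with a median of 7.83. The season difference was -0.90 (SE 0.16, q = 0.00017), the lowest q of the 9 genes, and it was the single member under the study's stricter threshold of 0.001. Slc5a1 was also 1.001 higher in SpD than in IBA (SE 0.25, q = 0.010) and 0.87 lower in IBA than in SA (difference -0.87, SE 0.29, q = 0.035). The IBA/SA call was lost when any 1 of 7 animals was left out (K7, K104, K138, K139, K141, K167 or K171). K130, low for every other member, had the second highest Slc5a1 value of SpD.

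Slc2a2, the basolateral carrier through which glucose leaves the cell, had its highest mean in SA and its lowest in SpD (8.90), the other active state. Without K130 the SpD mean was 9.05, above those of LAr (8.95) and Ent (8.99). The SA values were 9.94, 10.25, 10.36 and 10.51. The SpD values were 8.32, 8.57, 8.82, 9.32 and 9.50, all below these SA animals, though K137, left out, had 8.73. IBA, with 8.92, 9.37, 9.68, 9.72 and 10.01, came second in the order of means, and the means of EAr, Ent and LAr were 9.28, 8.99 and 8.95. The SA/SpD difference was 1.44 (SE 0.28, q = 0.0049), or 2.72-fold, and IBA was 0.81 lower than SA (difference -0.81, SE 0.28, q = 0.037), a call lost without any 1 of K4, K7, K104, K130, K138, K139, K140 or K171. Without K130 the SA/SpD difference was 1.12 (q = 0.060) and no longer passed. The season difference of Slc2a2 was small (-0.39, SE 0.15, q = 0.045) and was lost on leaving out any of 20 of the 29 animals. Within experiment 1 it was 0.03, where Slc5a2 (-1.49) and Slc5a1 (-0.67) were below 0.

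The carboxykinase genes followed unlike orders of states. Pck2, the mitochondrial form, was lower in IBA, where it had 11.77, 11.81, 12.11, 12.21 and 12.33, than in SA, where it had 12.56, 12.75, 12.84 and 12.97. LAr, with 12.39, 12.42, 12.49, 12.54 and 12.95, was also wholly above IBA, though K113, left out, had 11.65. SpD held 12.69, 12.77, 13.02 and 13.24, with K130 apart at 11.91. The IBA/SA difference was -0.84 (SE 0.20, q = 0.0046), the IBA/LAr difference -0.62 (SE 0.19, q = 0.027), the SpD/IBA difference 0.68 (SE 0.17, q = 0.011) and the season difference -0.42 (SE 0.11, q = 0.0047). The IBA/LAr call was lost without K7, K104 or K116. Pck1, the cytosolic form and a classic control point of gluconeogenesis, had its highest means in Ent, EAr and LAr. Its means were 16.98 in SA, 16.94 in IBA, 17.55 in Ent, 17.70 in EAr, 17.56 in LAr and 17.09 in SpD. IBA held 17.09, 17.16, 17.28 and 17.30, with K7 far below at 15.89. LAr ran from 17.41 to 17.71, so the IBA and LAr animals did not overlap without K113 (16.80). The IBA/LAr difference was -0.72 (SE 0.32, q = 0.12) and the season difference 0.40 (SE 0.18, q = 0.091), neither of which passed.

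Slc37a4, the glucose 6-phosphate carrier of the endoplasmic reticulum, had 12.92, 13.08, 13.13 and 13.29 in SA against 12.06, 12.14, 12.50, 12.57 and 12.60 in IBA. These did not overlap, though K137, left out, had 12.28. The IBA/SA difference was -0.85 (SE 0.18, q = 0.0020), or 1.80-fold, and the season difference -0.34 (SE 0.10, q = 0.0099). G6pc, its partner in the last step, had 14.33, 14.47, 14.55 and 14.67 in SA, above every animal of IBA (13.16 to 14.16) and of SpD (12.99 to 14.07). K137, left out of SA, had 13.02. The fitted differences of G6pc missed the threshold, at -0.78 for IBA/SA (SE 0.30, q = 0.064) and 0.87 for SA/SpD (SE 0.30, q = 0.060). Fbp1 ranged from 14.68 to 15.18 in IBA and from 15.25 to 15.47 in LAr, a pair of states that did not overlap without K113 (14.73). The IBA/LAr difference of Fbp1 was -0.62 (SE 0.23, q = 0.059). Pc had state means from 13.20 in IBA to 13.70 in SA, and its lowest animals were K8 (Ent, 12.49), K130 (12.50) and K7 (IBA, 12.65). It passed in none of the comparisons.

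Set out by comparison, IBA/SA and the season each held 5 called members. In IBA/SA all 9 fitted differences were below 0, with a median of -0.81 against 0.03 over all genes, and 5 were called lower (Slc5a2, Slc37a4, Pck2, Slc5a1 and Slc2a2), against 12.5% of all genes. For 4 of the 9 (Slc5a2, Slc37a4, Pck2 and G6pc) the animals of IBA and SA did not overlap, against 18.8% of all genes. K137, left out there, was below the highest IBA animal for Slc37a4 (12.28 against 12.60) and G6pc (13.02 against 14.16). Over the season 5 members were called lower and 0 higher, against 16.8% and 16.6% of all genes, and the median member difference was -0.34 against 0.00024. Without K130 the season count was 6 (16.9% of all genes were lower), with G6pc added (difference -0.41, q = 0.049), and the IBA/SA count was 4 (12.1%). With K113 and K137 put back 3 members were lower over the season (Slc5a1, Slc5a2 and Pck2, against 14.3% of all genes) and 2 in IBA/SA (Slc5a2 and Pck2, against 6.11%). Within experiment 1, which held IBA, Ent and SpD, 8 of 9 members were lower in hibernation by plain means (49.9% of all genes), and Slc5a2, Pck2, Pc and Slc37a4 did not overlap between seasons (8.15% of all genes). Within experiment 2 without K130, by plain means, 7 of 9 were lower (50.2% of all genes) and 0 were free of overlap (6.18% of all genes), and Pck1 was 0.56 higher there but 0.33 lower in experiment 1 (difference -0.33). A fit of experiment 2 alone, in which SpD is K130 and K84, called 3 members over the season. Slc5a1 was lower (-1.33), as were 19.4% of all genes, and Pck1 (0.73, q = 0.0018) and Fbp1 (0.43, q = 0.019) were higher, as were 19.6%. There Slc5a2 (-0.49, q = 0.21), Pck2 (-0.19, q = 0.24), Slc37a4 (-0.13, q = 0.33) and Slc2a2 (-0.12, q = 0.47) did not pass.

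**Figure D2:**
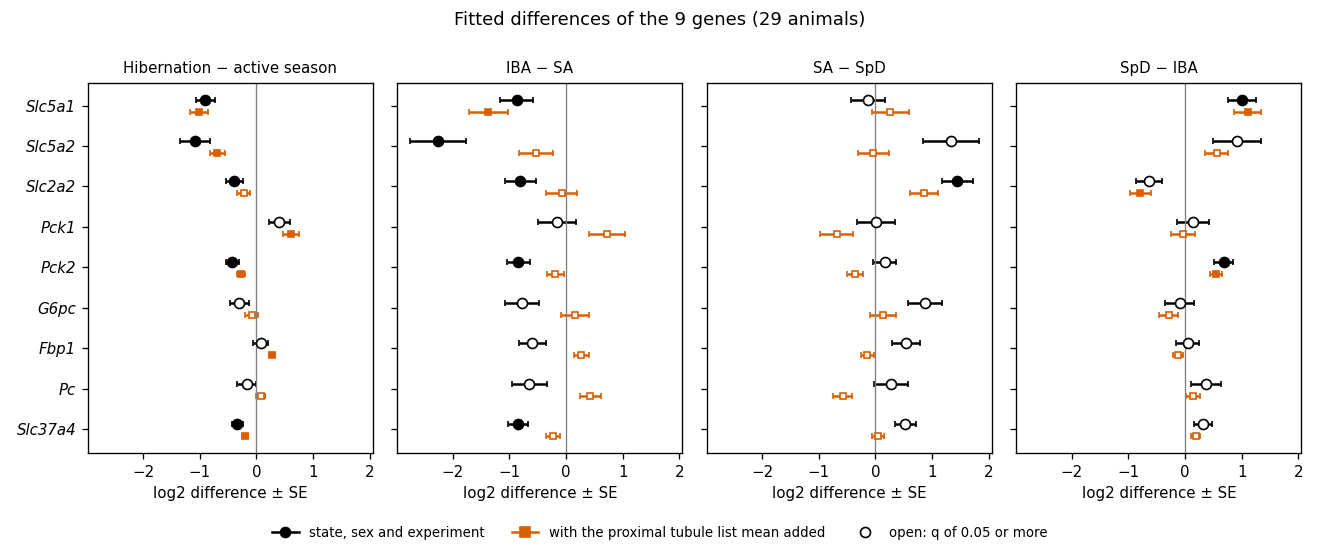
Fitted log2 differences with standard errors (x axis) of the 9 genes (y axis) in 4 comparisons; circles are the fit with state, sex and experiment, squares the same fit with the mean of 18 proximal tubule genes added, and filled symbols have q under 0.05. In IBA minus SA all circles lie below 0 and 5 are filled, while with the added term only Slc5a1 (-1.37) is filled.

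The remaining steps of the cycle held few calls. SA and SpD differed in 1 member, Slc2a2, higher in SA (5.47% of all genes were higher there), and Slc2a2 and G6pc did not overlap, against 9.37% of all genes. K137, left out of SA, was below the highest SpD animal for both (8.73 against 9.50 and 13.02 against 14.07). SpD was higher than IBA in 2 members, Slc5a1 and Pck2, against 6.48% of all genes. Without K130 that count was 4 (7.92% of all genes), with Slc5a2 (1.40, q = 0.014) and Slc37a4 (0.48, q = 0.023) added. IBA was lower than LAr in 1 member, Pck2, against 8.03% of all genes, and Pck2, Fbp1 and Pck1 did not overlap, against 13.7% of all genes. K113, left out of LAr, was below the highest IBA animal for each of them (11.65 against 12.33, 14.73 against 15.18, and 16.80 against 17.30). No member passed in limma between Ent and IBA (0 of 9, against 13.1% of all genes), where 2 members had an unadjusted p under 0.05, Slc2a2 (-0.55) and Pck1 (0.60). Across the torpor bout, from Ent to EAr, 0 of 9 passed in limma against 0.257% of all genes, with 1 unadjusted p under 0.05, and in early rewarming, from EAr to LAr, 0 of 9 passed against 0.575%, with 0 unadjusted p under 0.05. The EAr/Ent differences ran from 0.03 to 0.61 and the LAr/EAr differences from -0.27 to 0.17. Males and females differed in 0 of 9 members (0.218% of all genes), with 1 unadjusted p under 0.05, that of Slc5a1 (male minus female -0.37, q = 0.69).

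Proximal tubule markers moved with these genes between IBA and SA, but less so over the season. In a bulk sample fewer cells of a type and less RNA per cell cannot be told apart. The mean of the 18 proximal tubule markers was 14.11 to 14.43 in SA (n = 4), 13.08 to 13.75 in IBA (n = 5), 13.41 to 14.02 in Ent, 13.76 to 14.00 in EAr, 13.66 to 14.05 in LAr and 12.44 to 14.11 in SpD. In IBA/SA 10 of the 18 were called lower and 0 higher, against 12.5% and 10.4% of all genes. Their median difference was -0.80, beside -0.81 for the 9 genes. The list of early proximal segments, where SGLT2 sits, had 6 of 7 lower (median -1.31), and that of the last segment, where SGLT1 sits, 4 of 6 (median -1.18). Lists of other cells were lower there too, podocytes in 3 of 6 (median -0.67) and the distal convoluted tubule in 2 of 4 (median -0.70). Over the season 5 of the 18 proximal tubule markers were lower and 2 higher, against 16.8% and 16.6% of all genes, with a median of -0.03. With the mean of this list as a further term, 1 member was called lower in IBA/SA (7.84% of all genes), Slc5a1 (-1.37, q = 0.012). The differences of Slc5a2 (-0.52, q = 0.24), Slc2a2 (-0.08, q = 0.87), Pck2 (-0.19, q = 0.40) and Slc37a4 (-0.23, q = 0.19) no longer passed. IBA and SA animals did not overlap in the list mean, so this fit cannot separate state from list level there. Slc5a1, at -0.87 without the term, did not follow the list (r = -0.02) and was not set against the last segment list. The season count with that term was 6 (20.7% of all genes were lower and 19.3% higher). Slc5a1 (-1.01), Slc5a2 (-0.69), Pck2 (-0.27) and Slc37a4 (-0.20) were lower, and Pck1 (0.61, q = 0.0017) and Fbp1 (0.27, q = 0.00075) were higher. Without that term Pck1 (0.40, q = 0.091) and Fbp1 (0.08, q = 0.68) did not pass over the season. The inner medulla and thin limb list, 10 genes, had state means from 10.60 in LAr to 11.55 in SpD (11.13 in SA and 11.30 in IBA), with 2 called lower and 0 higher over the season.

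Differences taken within an animal compare genes of the same library and are free of any shift that all its genes share. A shift of single genes between experiments stays in them, and their tests hold no term for experiment or sex. All SA animals were in experiment 2, while IBA held 3 of experiment 1. Of 12 such differences, 5 passed over the season and 1 in IBA/SA (exact permutation test, two-sided, Benjamini-Hochberg over the 24 tests of both contrasts). Pck1 minus Pck2 was 5.10 ± 0.36 (SD, n = 20) in hibernation and 4.29 ± 0.29 (SD, n = 9) in the active season, a gap of 0.82 (exact permutation p = 9.39e-06, q = 0.00023). Hibernation animals ran from 4.12 to 5.94 and active animals from 3.94 to 4.91, so the groups overlapped, with K7 (IBA) the lowest of the hibernation animals. The gap lay between 0.77 and 0.89 with each animal left out. Within experiment 1 it was 0.52, with 6 animals against 3 (exact permutation p = 0.15).

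Against the mean of the proximal tubule list, Slc5a2 was 0.84 lower in hibernation (difference -0.84, exact permutation q = 0.00035), so its season difference exceeded that of the full list. Against the early segment list, where SGLT2 sits, the gap was smaller, at -0.59 over the season and -0.84 in IBA/SA. Relative to the full list, Slc5a2 was at -1.62 ± 0.40 (SD, n = 20) in hibernation and -0.78 ± 0.45 (SD, n = 9) in the active season. Within experiment 1 all 6 hibernation animals lay below all 3 SpD animals, a difference of -0.93 (exact permutation p = 0.012, the smallest that 6 against 3 allows). In IBA/SA the gap was -1.19 (exact permutation p = 0.0079, the smallest that 5 against 4 allows, q = 0.038), and it did not pass adjustment when any 1 of those 9 animals was left out. Fbp1 rose against the list over the season by 0.28 (exact permutation q = 0.00035) and Pck1 by 0.59 (q = 0.0055), also by exact permutation. Within experiment 1 these gaps were 0.20 (exact permutation p = 0.11) and 0.23 (exact permutation p = 0.52). These are shifts relative to the list, as the values of Fbp1 and Pck1 themselves did not pass over the season in limma. Slc5a1 fell against it (-0.72, exact permutation q = 0.042), a call that was lost on leaving out any 1 of 17 animals, K130 and K84 with the largest shift (to -0.51 and -0.56), and within experiment 1 it was -0.10 (exact permutation p = 0.68). Slc2a2, Pck2, G6pc, Pc and Slc37a4 did not pass against the list. The difference G6pc minus Slc37a4, carrier and enzyme of the same step, was 1.23 ± 0.29 (SD, n = 20) in hibernation and 1.17 ± 0.28 (SD, n = 9) in the active season (exact permutation q = 0.91).

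**Figure D3:**
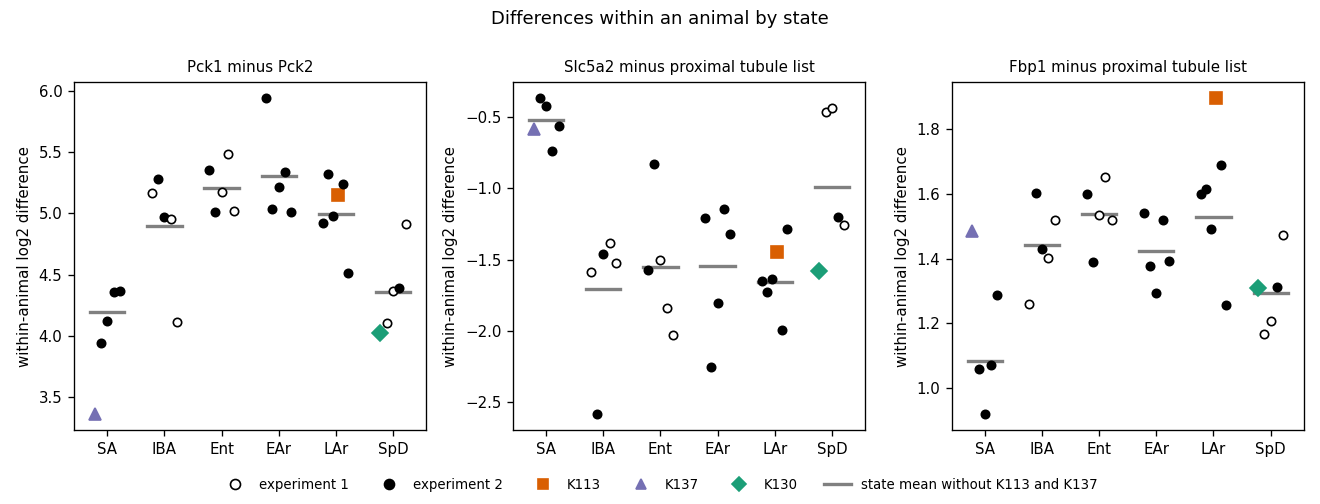
Within-animal log2 differences (y axis) by state for Pck1 minus Pck2 and for Slc5a2 and Fbp1 minus the mean of 18 proximal tubule genes; symbols and bars are as in the plot of values by state. Pck1 minus Pck2 is 3.94 to 4.91 in SA and SpD without K137 and 4.12 to 5.94 in the hibernation states, and Slc5a2 against the list averages -0.78 in the active season and -1.62 in hibernation.

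Single animals moved the members together. K113 lay below all 5 other LAr animals for 9 of 9 members, where 37.2% of all genes did so. K137 lay below the 4 other SA animals for 8 of 9 (29.5% of all genes), all but Pck2, which at 12.59 was within them. K130 lay below the 4 other SpD animals for 8 of 9 (28.4% of all genes), all but Slc5a1. The median member was 0.77 lower in K113 than the mean of the others, 0.83 lower in K137 and 1.02 lower in K130 (differences -0.77, -0.83 and -1.02). The widest gaps were Slc5a2 in K130 (10.86 against 12.31 to 13.65), Slc2a2 in K137 (8.73 against 9.94 to 10.51) and G6pc in K137 (13.02 against 14.33 to 14.67).

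The same 3 animals had low proximal tubule and high inner medulla markers. The proximal tubule list mean was 12.83 in K113 against 13.66 to 14.05 in the other LAr animals, 13.18 in K137 against 14.11 to 14.43, and 12.44 in K130 against 13.52 to 14.11. The inner medulla list mean was 12.42, 12.96 and 12.41 in them against 10.49 to 10.71, 10.53 to 11.60 and 10.98 to 11.74. The urea transporter Slc14a2, the inner medulla marker farthest from its state, was 12.87 in K113 against 6.31 to 6.91 in the other LAr animals, 13.51 in K137 against 6.17 to 10.43, and 12.99 in K130 against 8.38 to 11.82. In IBA, K104 was alike in kind: its inner medulla list mean was 12.24 against 10.51 to 11.55 in the other IBA animals, its proximal tubule list mean was the lowest of IBA (13.08 against 13.17 to 13.75), and it had the lowest Slc5a2 of IBA (10.49). The part of these marker levels in the members' values of these single animals was not tested.

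**Figure D4:**
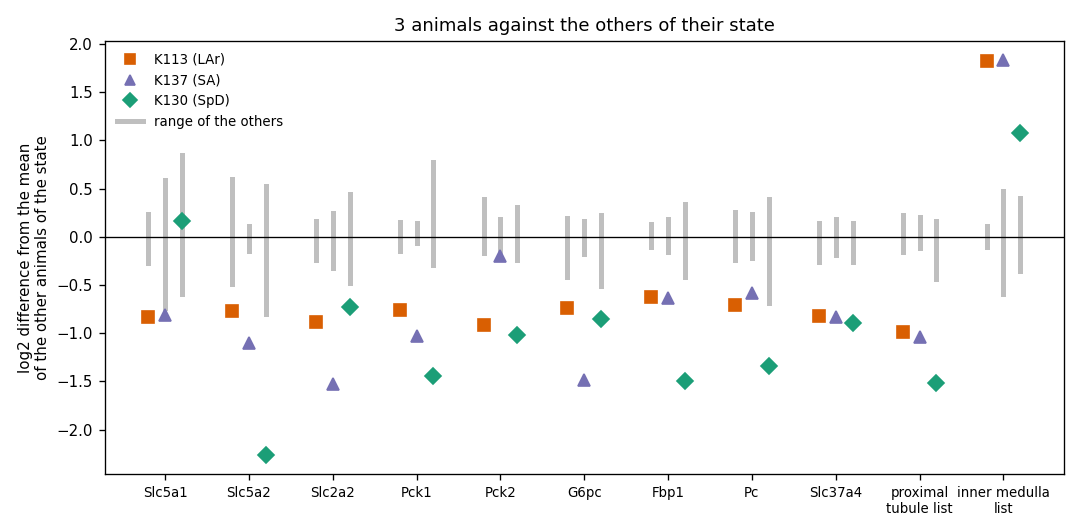
Log2 difference (y axis) of K113, K137 and K130 from the mean of the other animals of their state, for the 9 genes and for the means of the proximal tubule and inner medulla lists; grey bars span the other animals. All 9 genes of K113, 8 of K137 and 8 of K130 lie below the bars, as does the proximal tubule list, while the inner medulla list lies above them.

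Other genes of the pathway were taken from lists written by role. Among other sugar carriers and their partners 6 of 12 differed across states (46.1% of all genes did). Over the season 5 were lower and 1 higher (median difference -0.21), against 16.8% and 16.6% of all genes. The inositol carrier Slc5a11 was lower in the season contrast (-0.36, q = 0.0028) and in IBA/SA (-0.81, q = 0.0010), the basolateral glucose carrier Slc2a1 was lower over the season (-0.36, q = 0.038) and higher in IBA than in LAr (0.70, q = 0.036), and the fructose carrier Slc2a5 was higher over the season (0.48, q = 0.044). Among the reversible steps that gluconeogenesis shares with glycolysis 7 of 14 differed across states and 8 were lower and 0 higher over the season (median -0.21). Their changes were small: Tpi1 (triose phosphate isomerase) was at -0.29, Pgk1 (phosphoglycerate kinase) at -0.24 and Mdh1 (cytosolic malate dehydrogenase) at -0.23, with q of 0.00013, 6.4e-05 and 0.00032. Pgk1 had 3 rows in the table, and reads of near-identical copies may be split among them.

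The genes through which lactate, amino acids and glycerol enter the pathway formed the next list. Of 23, 17 differed across states (46.1% of all genes did). Over the season 12 were lower and 2 higher (median -0.30), against 16.8% and 16.6% of all genes. In IBA/SA 15 were lower and 1 higher, against 12.5% and 10.4% of all genes. Glycerol kinase (Gk) had a mean of 13.72 in SA and 12.55 in IBA (difference -1.31) and was 0.63 lower over the season (difference -0.63). Alanine aminotransferase (Gpt) had 11.45 in SA and 10.47 in IBA (difference -1.06) with a season difference of -0.73, and both were lower in IBA than in LAr (-0.60 for Gk, q = 0.0078; -0.40 for Gpt, q = 0.022). The mitochondrial glycerol 3-phosphate dehydrogenase Gpd2 was higher over the season (0.40) and in IBA/SA (0.43, q = 0.0017). Among 28 regulators of gluconeogenic genes 12 differed across states, a share below that of all genes, and 7 were lower and 2 higher over the season, with a median of -0.08. The orphan nuclear receptor Nr4a1, a fast-induced transcription factor, had its highest mean in LAr (9.50) and its lowest in EAr (8.20), and was lower in IBA than in LAr (-1.02, q = 0.0052). The glucocorticoid-responsive Klf9 was lower over the season (-0.44, q = 0.0022), and the ubiquitin ligase gene Fbxw7 differed across states (q = 0.0043) and between IBA and LAr (0.26, q = 0.041) but not over the season (-0.10, q = 0.11). All genes of the table had a median season difference of 0.00024 and a median IBA/SA difference of 0.03.

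Across the 29 animals most pairs of members other than Slc5a1 had a positive correlation, which is a description over animals that share states and experiments. The 28 pairs among those 8 genes had Pearson's r from -0.14 to 0.91 with a median of 0.61, highest for Slc5a2 with Slc37a4 (0.91) and lowest for Slc2a2 with Pck1. The 8 pairs with Slc5a1 had a median of -0.01. Without K130 those medians were 0.56 and 0.10, r of Slc2a2 with Pck1 went from -0.14 to -0.36, and r of Pck1 with Slc5a2 and with G6pc went from 0.15 and 0.16 to -0.03 and -0.02. With each animal set against its state's mean, r of Slc5a1 with Slc5a2 went from 0.17 to -0.41. Set out the same way, r of Pck1 was 0.45 with Slc5a2 and 0.41 with G6pc. With the proximal tubule list mean, r was 0.88 for Fbp1 and Slc37a4, 0.86 for Slc5a2 and Pc, 0.76 for G6pc and Pck2, 0.56 for Slc2a2, 0.50 for Pck1 (0.27 without K130) and -0.02 for Slc5a1 (0.21 without K130). With the inner medulla list mean Slc5a1 alone had a positive r, 0.58, and the other 8 were between -0.71 and -0.25.

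The genes nearest to each member were taken by r over the 29 animals. Slc5a1 was nearest to the amino acid carriers Slc6a20 (0.90) and Slc6a18 (0.87) and to Atf5 (0.87), and Slc6a18 is a marker of the last proximal segment. Slc5a2 was near to Atp6v0a1 (0.97) and the amino acid carrier Slc7a8 (0.94). Pck2 was nearest to Dhtkd1 (0.91), the inositol carrier Slc5a11 (0.90) and catalase, Cat (0.89), and Pck1 to the dicarboxylate carrier Slc25a10 (0.83), Lonp2 (0.82) and Msh6 (0.81). Fbp1 was nearest to Shmt2 (0.93), Mme (0.92) and Mapt (0.92), and Pc to Fam151a (0.91), Lamp1 (0.90) and VPS35L (0.90). G6pc was nearest to Dnajc6 (0.90), Faf2 (0.87) and Nox4 (0.87), Slc37a4 to Maob (0.94), Shmt1 (0.93) and Kl (0.92), and Slc2a2 to OR8K3 (0.86), Exoc5 (0.85) and Faf2 (0.83). Faf2 was thus among the 3 nearest of both Slc2a2 and G6pc, whose own r was 0.82.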

How the data were processed

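Kidney polyadenylated RNA was sequenced by the authors, and 31 animals are analysed here; another SA animal of the study was not. Per the study's methods, the authors used cutadapt for trimming, HISAT2 to discard mitochondrial reads, Salmon with the HiC_Itri_2 assembly for quantification and tximport for gene totals, kept genes with sufficient rlog values, and removed the experiment effect from the rlog values with limma. The deposited values are log2 values (rlog), in which the mean of experiment 1 equalled that of experiment 2 for every gene to within rounding (largest difference 1.1e-14). As SA, EAr and LAr animals were all in experiment 2, part of a difference between states may have been removed with the experiment effect. Plain means, ranges, overlaps, correlations and permutation tests use these values as they are. rlog values draw weakly counted genes together, so differences of low genes are understated, and the depth per sample is unknown.

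The study's count test needs counts, so for 12863 genes in 29 animals a linear model with state, sex and experiment as terms was fitted by limma 3.58.1 under R 4.3.3, its prior variance following the mean level; p-values were adjusted per comparison (Benjamini-Hochberg) and called at q under 0.05 (the study's 0.001 is an alternative). The experiment term rests on IBA, Ent and SpD. The degree of freedom already spent by the authors on the experiment is not counted. The p-values measure the spread between animals. Within-animal differences were tested by exact permutation (Python 3.11.15), without terms for sex or experiment. Scripts were tested on simulated data.

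Members, lists, tests and alternatives were chosen with earlier results of these data known. The named genes were the 9 members, in each pathway list the 3 called genes of lowest F test q, the 3 nearest genes of each member (1 of them is not reported here), and the marker farthest from its state. Gene lists were written from general knowledge. Marker lists not described in the text (other nephron segments, glomerulus, vessel, stroma, macrophages) are summarised with the other observations. In the RefSeq table of assembly mIctTri1.hap1, 9 of 9 members had an entry, 8 by symbol; as it is not the authors' assembly, no positions are given. Alternatives were all 31 animals, other model terms, marker lists as covariates, other variance settings, animal weights, experiment 2 only, centring, a mean filter of 8, 2 states alone, and each animal left out. Within-experiment season values and the test in experiment 1 alone were added after seeing the data.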

Additional observations from a re-analysis of the deposited data

Results flagged for a closer look

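In 54 groups of a member and a state, a test for an animal far from the rest of its group (Dixon's ratio against its critical value, all 31 animals) picked 6 values, where chance gives about 1 in 20 groups. Of these, 5 were in K113 or K137, whose low proximal tubule and high inner medulla markers are given above. In SA, K137 was apart for Slc5a2 (12.60, others 13.55 to 13.81), Pck1 (15.94, others 16.91 to 17.11) and G6pc (13.02, others 14.33 to 14.67). In LAr, K113 was apart for Pck1 (16.80, others 17.41 to 17.71) and Fbp1 (14.73, others 15.25 to 15.47). The remaining one was Pck1 in IBA, where K7 had 15.89 and the others 17.09 to 17.30. In K7 the mean of the 6 macrophage markers was 9.04 against 7.98 to 8.39 in the other IBA animals, and the proximal tubule list mean was 13.17 against 13.08 to 13.75.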

How the results depend on the processing

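The season value of Slc2a2 was 0.033 by group means within experiment 1, where the fit over both gave -0.39; no other called value changed sign under an alternative. All counts stayed at 0 in EAr/Ent, LAr/EAr and between the sexes. Counts of members called moved as follows. The share of all genes called is given above for some of these fits only. The counts here and with 1 animal left out are therefore not read against a background. At q under 0.001 there were 0 in SA/SpD, IBA/SA, IBA/LAr, SpD/IBA and across the states, and 1 over the season. With all 31 animals there were 0 in SA/SpD, 2 in IBA/SA, 0 in IBA/LAr and 3 over the season. The proximal tubule covariate gave 0 in SA/SpD, 1 in IBA/SA and 1 in Ent/IBA, and the inner medulla covariate 1 in Ent/IBA, 0 in IBA/LAr and 4 in SpD/IBA. Animal weights gave 0 in SA/SpD, 4 in Ent/IBA, 3 in IBA/LAr, 4 in SpD/IBA and 8 across the states. Experiment 2 alone, where SpD is K130 and K84, gave 7 in SA/SpD, 0 in IBA/LAr, 1 in SpD/IBA, 3 over the season (1 lower, 2 higher) and 8 across the states. Centring gave 2 in IBA/LAr, and the 2 states alone gave 0 in SA/SpD, 2 in IBA/LAr and 0 in SpD/IBA. Of the within-animal differences, experiment 2 alone gave 0 in IBA/SA, the early segment list 7 in IBA/SA, and experiment 1 alone 0 over the season, where a single difference at the smallest p, 0.012, cannot pass adjustment over 12. The causes were not tested.

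Leaving out 1 animal at a time gave 0 to 4 in SA/SpD (0 without K130, 2 without K6 or K9, 3 without K5, K7 or K8, 4 without K167 or K171), 3 to 7 in IBA/SA (3 without K7, K104, K138 or K139, 7 without K8), 0 to 1 in Ent/IBA (1 without K167), 0 to 3 in IBA/LAr (0 without K7, K104 or K116, 2 without K130, K167 or K171, 3 without K8), 2 to 4 in SpD/IBA (4 without K130), 4 to 6 over the season, 5 to 7 across the states, 0 in EAr/Ent, LAr/EAr and between the sexes, and, of the within-animal differences, 4 to 6 over the season and 0 to 1 in IBA/SA (0 without any 1 IBA or SA animal). No paired analysis was possible because animal numbers are not shared between groups.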

Other observations

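Marker lists of other parts of the kidney were compared over the season in the same fit, where lists are given as genes called lower and higher of those measured. Of all genes 16.8% were lower and 16.6% higher over the season, and 12.5% were lower and 10.4% higher in IBA/SA. The early proximal segment list had 4 lower and 0 higher of 7 (median difference -0.61), and the last segment list 4 and 0 of 6 (median -0.80). The thick ascending limb list had 3 and 0 of 5, the distal convoluted tubule list 1 and 0 of 4, principal cells 3 and 0 of 7, and intercalated cells 2 and 0 of 7. Podocytes had 0 and 0 of 6, endothelial cells 5 and 0 of 7, fibroblasts 3 and 0 of 6, macrophages 1 and 0 of 6, and hepatocytes 0 and 0 of 3. In IBA/SA the podocyte list had 3 lower and 0 higher of 6 (median difference -0.67), the distal convoluted tubule list 2 and 0 of 4 (median -0.70), and hepatocytes 1 and 0 of 3, while the thick ascending limb, principal cell, intercalated cell, endothelial, fibroblast and macrophage lists had 0 and 0.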
